A study of Rattus norvegicus with 12 samples.

Results

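The genes Tal1, Gata2, Gata3, Gad1, Gad2 and Tek were followed across 6 rat cell lines. Tal1 encodes a helix-loop-helix transcription factor, Gata2 and Gata3 zinc-finger factors, Gad1 and Gad2 the enzymes that make GABA, and Tek the endothelial receptor tyrosine kinase TIE2. They were taken as the probe sets whose only gene symbol in the array's gene table is one of these names, which gave 10 of 31099 probe sets and 6 of 14218 genes. Of the members, 4 had 2 probe sets and 2 had 1, and a gene's brightest probe set by its mean on the 12 arrays stands for it. Tal1 was chosen because it showed the largest rise in the lines labelled iPS, and the other members because of its known roles, with earlier results of these data in view. Levels of the members in iPS lines against the other lines are therefore given as a description, without a test.

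TAL1 binds DNA as a dimer with E proteins such as TCF3 and TCF12. It works in a complex with the bridging proteins LMO2 and LDB1 and, in blood, with GATA1 or GATA2. The same factor is needed for blood and vessel formation in the embryo, where TEK receives angiopoietin signals. In the midbrain and spinal cord TAL1, GATA2 and GATA3 specify inhibitory neurons, which make the transmitter GABA with the enzymes encoded by Gad1 and Gad2 and load it into vesicles with the transporter encoded by Slc32a1.

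RNA was measured on 12 single-colour Affymetrix arrays, 2 from each of 6 lines. The lines A1 and A2 are induced pluripotent stem (iPS) cells of the FHH rat strain, collected 5 days after passage, and the series' title says that they were derived with a transposon system. The lines DAC2 and DAC8 are labelled embryonic stem (ES) cells, collected 5 days after passage, with no strain given, and REF1 and REF2 are labelled FHH embryonic fibroblasts (EF) from e14.5 embryos, collected 6 days after passage. Per the labels' protocols, ES and iPS cells were kept in 2i medium and EF cells in MEF medium, and iPS lines were grown on mouse feeder fibroblasts whose removal is not described. The series asked whether the iPS cells had reached a pluripotent state like that of ES cells. Nothing in the labels tells whether a line's 2 arrays were separate cultures. The p-values between lines thus cover array-to-array spread, possibly technical.

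Marker levels went against some of the labels. Esrrb, a factor of naive pluripotent cells, had mean log2 levels of 10.28 (DAC2) and 9.96 (REF2), while the remaining lines gave 4.14 (DAC8), 4.56 (REF1), 4.77 (A1) and 4.82 (A2). Of 12 fibroblast markers, 11 reached a level of 5 in DAC8 and REF1, against 3 or 4 in the other lines. Of 10 neuronal markers, 8 reached 5 in A1 and A2, against 3 in DAC2, 4 in REF2 and 6 in DAC8 and REF1. The arrays labelled DAC8 thus carried a fibroblast profile, those labelled REF2 an ES-like profile and those labelled iPS a neuronal profile low in Esrrb. No array was regrouped, and each of the other 4 lines is given on its own. The median array levels ran from 5.28 to 5.41, and 5 was reached by 53.6% to 54.6% of the probe sets of an array. Signals under 5 cannot be told from background here. A difference with a single side under 5 is at best a lower bound, and no direction is read where both sides are.

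The 5 members tested were higher on each of the 4 iPS-labelled arrays than on any of the 8 other arrays, a property of 20.2% of the 11001 genes tested. By line means, 4 members (Tal1, Gata2, Gad1 and Tek) were at least 2-fold higher in the iPS-labelled lines than in each other line, as were 5.41% of genes. Nothing is read from either count, since the choice of Tal1 used this contrast. A level of 5 was reached in A1 and A2 by 5 members, and Gad2 stayed under 5 on every array. In bulk RNA, fewer expressing cells and less RNA per cell cannot be told apart.

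Tal1 measured 12.01 and 11.95 (log2 level) on the A1 arrays and 12.23 and 12.26 on the A2 arrays. The other arrays gave 4.66 and 4.77 in DAC2, 4.47 and 4.32 in DAC8, 4.25 and 4.38 in REF1, and 4.07 and 4.45 in REF2. The iPS-labelled arrays thus stood far above the rest, and no other array reached 5. The iPS mean exceeded DAC2 by 7.40, DAC8 by 7.71, REF1 by 7.80 and REF2 by 7.85 log2 units, each a lower bound. The weaker Tal1 probe set, 1394720_at, lay between 5.25 and 5.40 in iPS arrays and between 4.54 and 5.23 elsewhere, so it separated the arrays by only 0.02 at the nearest point.

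The stretch of 250 bases before the annotated start is shown for Tal1, Gata2 and Gad1, the regulators and the enzyme whose levels were high together in A1 and A2. The sequences are from RefSeq on the build GRCr8, plus strand, at chr5:133824214-133824463 for Tal1, chr4:122216031-122216280 for Gata2 and chr3:75777202-75777451 for Gad1. Capitals mark matches on either strand to CANNTG (the E-box, bound by helix-loop-helix dimers), to CAGATG (the E-box preferred by TAL1 dimers, itself a form of CANNTG) and to AGATAA or TGATAA (sites of GATA factors).
Tal1: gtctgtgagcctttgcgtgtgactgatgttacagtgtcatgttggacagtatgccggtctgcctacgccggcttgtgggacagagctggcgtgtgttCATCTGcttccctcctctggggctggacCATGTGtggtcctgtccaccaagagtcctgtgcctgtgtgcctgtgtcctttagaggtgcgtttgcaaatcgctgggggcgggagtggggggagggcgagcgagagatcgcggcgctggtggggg
Gata2: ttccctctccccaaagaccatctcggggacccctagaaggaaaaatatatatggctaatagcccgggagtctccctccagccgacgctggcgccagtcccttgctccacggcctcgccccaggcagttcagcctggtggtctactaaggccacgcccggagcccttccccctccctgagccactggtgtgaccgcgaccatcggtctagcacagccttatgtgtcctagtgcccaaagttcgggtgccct
Gad1: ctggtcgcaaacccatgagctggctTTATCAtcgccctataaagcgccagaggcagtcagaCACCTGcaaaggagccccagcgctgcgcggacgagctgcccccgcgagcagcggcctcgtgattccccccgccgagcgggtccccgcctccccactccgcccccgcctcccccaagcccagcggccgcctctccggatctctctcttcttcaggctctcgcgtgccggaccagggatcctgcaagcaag
The Tal1 stretch held 2 matches to CANNTG, of which 1 was CAGATG on the minus strand. The Gad1 stretch held 1 match to CANNTG and 1 to TGATAA, and the Gata2 stretch held none of the 4 motifs. Entries were found for 5 of the 6 members, and the Gata3 stretch held 1 CANNTG while the Gad2 stretch held no match. Of 33465 RefSeq stretches of the same length, 65.5% held CANNTG, 14% CAGATG, 10.3% AGATAA and 7.97% TGATAA, so the matches are common and describe these letters only.

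Gata2, which serves blood stem cells and the early inhibitory neurons of the midbrain, measured 9.65 and 9.63 in A1 and 9.91 and 9.75 in A2. It gave 3.34 and 4.64 in DAC2, 4.33 and 4.26 in DAC8, 3.52 and 3.53 in REF1, and 4.91 and 4.81 in REF2. The iPS-labelled arrays were again apart from the others, all of which were under 5. The iPS mean exceeded the other lines by 4.87 (REF2) to 6.21 (REF1) log2 units. The other Gata2 probe set, 1391882_at, did not follow: it lay between 4.05 and 4.31 in iPS arrays and between 4.06 and 4.92 elsewhere.

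Gata3, a factor of T cells, trophoblast and inhibitory neurons, had a different distribution. It measured 7.62 and 7.68 in A1 and 7.72 and 7.69 in A2, then 6.95 and 6.56 in DAC8 and 6.26 and 6.29 in REF1. It gave 2.83 and 3.04 in DAC2 and 2.67 and 2.66 in REF2. The iPS mean exceeded DAC8 by 0.92 and REF1 by 1.4 log2 units, and exceeded DAC2 by 4.74 and REF2 by 5.01. Gata3 was thus measured above 5 in 4 lines, and the iPS arrays were the highest by less than 2-fold over DAC8. The other Gata3 probe set, 1369525_at, lay between 4.93 and 5.04 in iPS arrays, 4.69 and 4.75 in DAC8, 4.35 and 4.40 in REF1, and 3.92 to 4.22 in DAC2 and REF2.

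Between the lines of a single label, Gata3 was higher in DAC8 than in DAC2 by 3.82 ± 0.12 log2 units (SE, 2 arrays against 2, limma adjusted p = 1.97e-09), in both DAC8 arrays over both DAC2 arrays. It was higher in REF1 than in REF2 by 3.61 ± 0.12 (limma adjusted p = 3.01e-09). These pairs were added after the data were seen, and they separate a fibroblast profile from an ES-like profile: 40.2% and 40.3% of genes were called at adjusted p under 0.05 and at least 2-fold. Of the 5 members tested, 2 were called between DAC8 and DAC2 (Gata3 and Tek) and 3 between REF1 and REF2 (these and Gata2), and the Tek and Gata2 levels were under 5 on both sides. The fibroblast list moved with Gata3, with 11 of 12 markers at or above 5 in DAC8 and REF1 and summed log2 levels of 123.9 (DAC8) and 128.8 (REF1), while DAC2 gave 50.3 and REF2 51.2. Its part in the Gata3 levels was not tested.

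Gad1, which encodes the glutamate decarboxylase that supplies most GABA in the cell body, measured 8.21 and 8.29 in A1 and 8.26 and 8.37 in A2. It gave 2.10 and 2.28 in DAC2, 2.18 and 2.01 in DAC8, 2.06 and 2.12 in REF1, and 2.67 and 2.67 in REF2. The iPS-labelled arrays lay far above, and every other array was well under 5. The iPS mean exceeded the other lines by 5.61 (REF2) to 6.19 (REF1) log2 units. The probe set 1370760_a_at of Gad1 lay between 4.78 and 5.12 in iPS arrays and between 3.41 and 4.21 elsewhere, the same arrangement near the limit of 5.

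Gad2, which encodes the decarboxylase of nerve endings, measured 4.39 and 4.50 in A1 and 4.19 and 4.01 in A2. The other arrays lay between 2.73 in DAC8 and 3.45 in REF2. The groups did not overlap, but all 12 values were under 5, so no direction is read and Gad2 was not tested.

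Tek measured 9.09 and 9.02 in A1 and 8.95 and 8.82 in A2. It gave 2.58 and 2.67 in DAC2, 4.63 and 4.88 in DAC8, 4.01 and 3.42 in REF1, and 2.30 and 2.46 in REF2. The iPS-labelled arrays were the only arrays to reach 5, and all 8 others were under it. The iPS mean exceeded DAC8 by 4.22, REF1 by 5.26, DAC2 by 6.34 and REF2 by 6.59 log2 units.

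**Figure D1:**
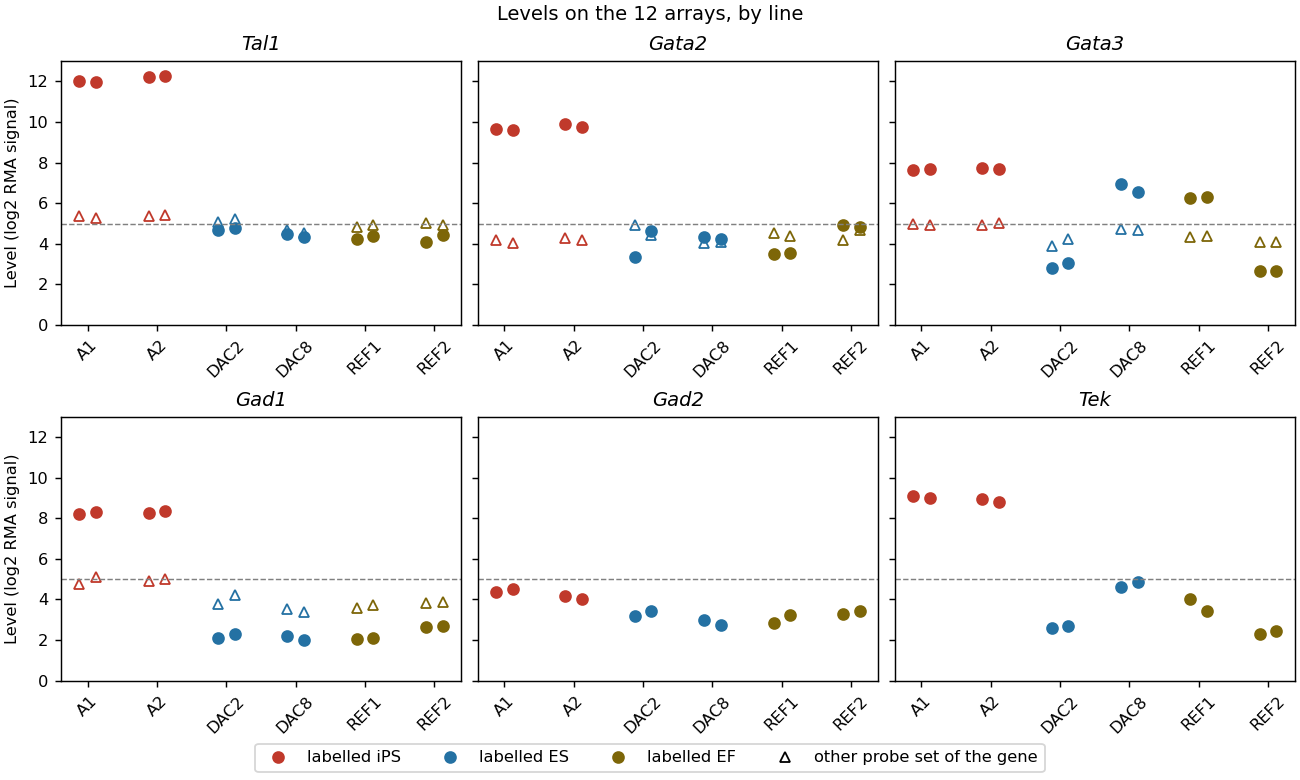
Log2 RMA level (y axis) of the 6 genes on each array, by line (x axis); filled circles are the probe set that stands for the gene, open triangles its other probe set, colours the label and the dashed line a level of 5. On the filled circles Tal1, Gata2, Gad1 and Tek reached 5 only in A1 and A2, Gata3 also in DAC8 and REF1, and Gad2 on no array.

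A1 and A2 were set against each other to ask whether the members differed between iPS lines, a contrast that the choice of Tal1 did not use. Of the 5 members tested, 0 were called by limma (adjusted p under 0.05 and at least 2-fold), against 0.218% of all genes, and 1 had an unadjusted p under 0.05. That gene was Tal1, at -0.27 ± 0.12 for A1 minus A2 (SE, 2 arrays against 2, limma adjusted p = 0.353), with both A1 arrays lower. Gata2 differed by -0.19 ± 0.31 (adjusted p = 0.862), Gata3 by -0.06 ± 0.12 (adjusted p = 0.892), Gad1 by -0.06 ± 0.08 (adjusted p = 0.822) and Tek by 0.17 ± 0.17 (adjusted p = 0.749). These sizes are small beside the differences between either line and the other 4, though a p above the threshold does not show that the lines are alike.

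DAC2 and REF2, which share an ES-like profile, gave 0 called members of 5, against 4.0% of genes called. At an unadjusted limma p under 0.05 there were 4 members, and 5824 of the 11001 genes. Every member tested was under 5 in both of these lines, so nothing is read from either count. DAC8 and REF1, which share a fibroblast profile, gave 1 called member against 1.53% of genes: Tek, by 1.04 ± 0.17 (limma adjusted p = 0.00316), from 4.76 in DAC8 and 3.71 in REF1. Both Tek levels are under 5, so no direction is read, and the call was lost without DAC8 replicate 2 (0.91) or REF1 replicate 2 (0.75). Gata3 differed by 0.49 ± 0.12 (limma adjusted p = 0.0195), under 2-fold. Gata2 in DAC2 against REF2 stood at -0.87 ± 0.31 (limma adjusted p = 0.0483), with both lines under 5, and passed 2-fold without DAC2 replicate 2 (-1.52).

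The other genes of the TAL1 complex were asked next, in lists that hold none of the members. iPS lines were compared with ES and with EF lines on line means (2 lines against 2, limma, called at adjusted p under 0.05), and with each of the other 4 lines on arrays (called in all 4, same direction, each at least 2-fold). The labels ES and EF each hold 1 line of ES-like and 1 of fibroblast profile. A gene that differs between these profiles thus has a wide SE on line means (2.49 for Pecam1, 0.22 for Lhx1). Lack of a call on line means therefore does not show that a gene was unchanged. Over all genes, 2.02% were called higher and 0.509% lower against EF, 1.83% and 0.436% against ES, and 5.41% and 3.35% against each of the 4 lines, with a median difference of 0.02 in both label comparisons. Of the TAL1 complex list, 20 of 22 measured genes were tested and 2 rose against both EF and ES, Lmo2 and Lmo3. With the line as a random block over the 12 arrays 1 of them, Lmo2, was called, and Lmo3 was not (adjusted p = 0.235 against EF and 0.27 against ES). None fell, and the list medians were 0.46 against EF and 0.52 against ES.

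Lmo2, the bridging protein that joins TAL1 to GATA factors, had means of 7.71 in A1 and 7.52 in A2 against 4.70 in DAC2, 5.15 in DAC8, 4.71 in REF1 and 4.53 in REF2. It was higher than EF by 2.99 ± 0.27 (SE, limma adjusted p = 0.0201) and than ES by 2.69 ± 0.27 (adjusted p = 0.0241). Lmo3, a neural member of the same family, was higher by 2.18 ± 0.23 (adjusted p = 0.0279) and 2.12 ± 0.23 (adjusted p = 0.0301), and it passed the filter on low values only through the iPS lines, as did Ldb2. Ldb2, a relative of the scaffold LDB1, was at 6.30 in A1 and A2 against 2.27 to 4.59, and was called only against each of the 4 lines.

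The general partners of TAL1 were measured in every line. Ldb1 differed from EF by 0.67 ± 0.25 (limma adjusted p = 0.325), the E protein gene Tcf12 by 0.79 ± 0.36 (adjusted p = 0.439) and Tcf3 by 0.09 ± 0.21 (adjusted p = 0.883). Zfpm2, a cofactor of GATA proteins, was at 6.99 in A1 and 6.98 in A2, close to DAC8 (6.96) and REF1 (6.66), while DAC2 gave 2.53 and REF2 2.41. Zfpm1, the cofactor of blood, and Lyl1, the nearest relative of Tal1 in blood, were under 5 in every line.

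**Figure D2:**
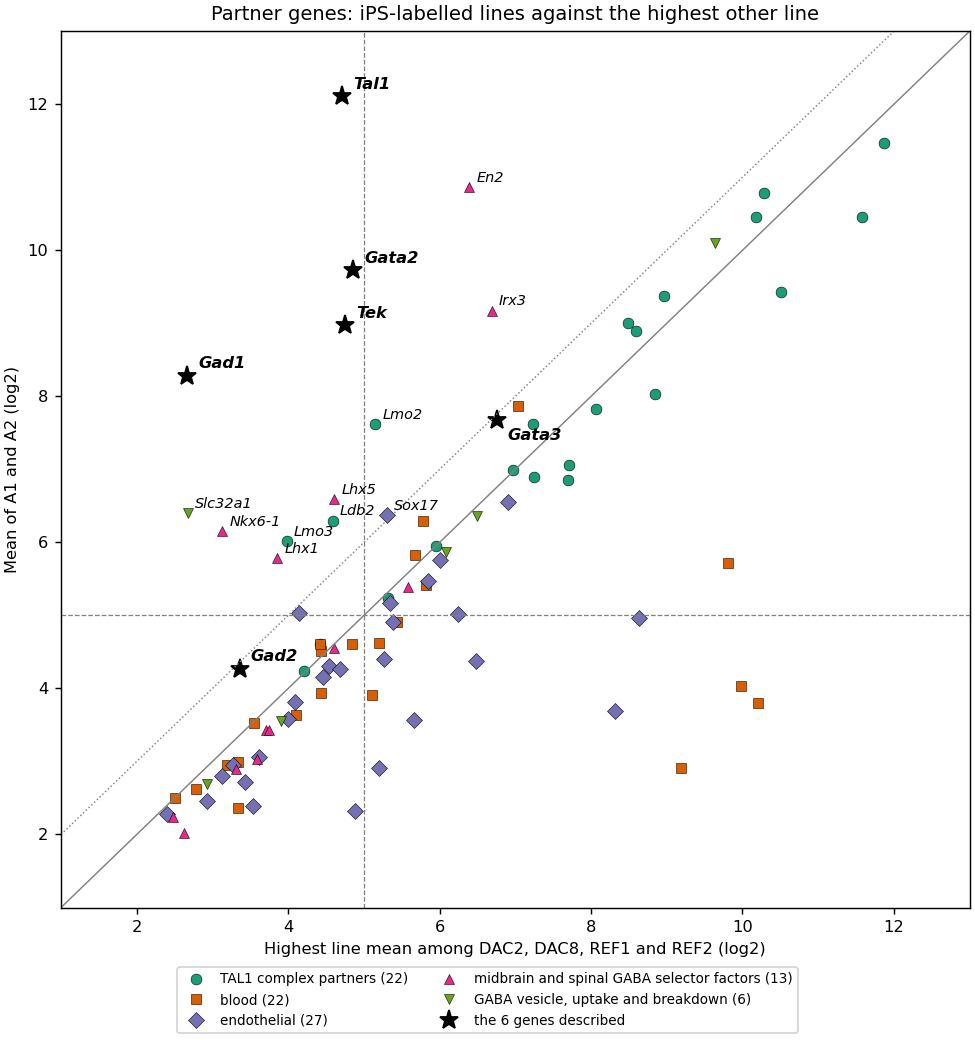
Mean log2 level of A1 and A2 (y axis) against the highest mean among the other 4 lines (x axis) for each measured gene of 5 lists and for the 6 genes described; the solid line marks equality, the dotted line 2-fold and the dashed lines a level of 5. Genes at least 2-fold above the highest other line are named; Lmo2, En2, Irx3 and Slc32a1 are among them, and no gene of the blood list is.

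None of the other 4 GATA genes was called in any of these comparisons (2 tested, limma, 0 at an unadjusted p under 0.05 against EF or ES). Gata1, the GATA factor of red cells and platelets, was at 8.0 in DAC2 and 6.60 in REF2 but at 4.13 in A1 and 3.75 in A2. Gata6 lay between 4.90 and 5.31 in all 6 lines, and Gata4 was under 5 in each.

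Of 22 blood genes measured, 11 were tested; 0 were called by limma against EF or ES, where 1 and 0 had an unadjusted p under 0.05 in either direction, and list medians were -0.15 and -0.35. With 2.02% and 1.83% of all genes called higher, a count of 0 among 11 is near the background. All 4 iPS arrays lay above the other 8 for 3 of the 11 (Myb, Hbb and Kit, named after their values were seen), against 20.2% of all genes, and below them for 2 (Runx1 and Mecom), against 1598 of the 11001 genes. Against each of the 4 lines 1 gene fell, beside 3.35% of all genes. It was Runx1, the factor that starts definitive blood formation. Runx1 was at 4.08 in A1 and 3.52 in A2, while the other means were 9.59 (DAC8), 10.21 (REF1), 6.16 (DAC2) and 5.99 (REF2). Klf1, the red-cell factor downstream of GATA1, was under 5 in every line. A level of 5 was reached by 5 of the 22 genes in A1 and in A2, against 6 in DAC8 and REF1, 8 in REF2 and 10 in DAC2.

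Of 27 endothelial genes measured, 14 were tested; 0 were called by limma against EF or ES, which again is near the background. At an unadjusted p under 0.05 there were 1 higher and 1 lower against EF, and 2 higher and 1 lower against ES, and the medians were -0.37 and -0.25. All 4 iPS arrays lay above the other 8 for 2 of the 14, Sox17 and Sox18, against 20.2% of all genes. They lay below the other 8 for 2, Flt1 and Eng, against 1598 of the 11001 genes. Neither count is an excess over the background. Sox18, which passed the filter only through the iPS lines, was at 4.99 in A1 and 5.07 in A2 against 3.93 to 4.14. Against each of the 4 lines 1 of the 14 was called higher, beside 5.41% of all genes. It was Sox17, a factor of arterial endothelium and of endoderm, at 6.15 in A1 and 6.60 in A2. REF2 gave 5.30 and the other lines 1.79 to 2.52. Sox17 was not called without REF2 replicate 2, after quantile normalization or with the mean of its probe sets. With the line as a random block it was called against ES (adjusted p = 0.03). Pecam1, an adhesion molecule of endothelium that ES cells also carry, was at 7.88 in DAC2 and 8.32 in REF2 but at 3.90 in A1 and 3.50 in A2. Tie1, the partner receptor of TEK, was at 5.19 in DAC2 and under 5 elsewhere. The TEK ligand genes Angpt1 and Angpt2 and the receptor gene Kdr were under 5 in all 6 lines.

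The factors that specify inhibitory neurons of the midbrain and spinal cord formed a further list. Of 13 measured genes, 6 were tested and 4 rose against both EF and ES: Nkx6-1, Irx3, Lhx1 and Lhx5. Over all genes, 2.02% were called higher against EF and 1.83% against ES. None of the list fell, and its medians were 2.50 and 2.41. Of the 6 tested, 3 (Nkx6-1, Lhx1 and Lhx5) passed the filter only through the iPS lines. Neither the share called nor the medians therefore measure the list. Under 5 in every line were 7 measured genes, Helt, Sox1 and Ptf1a among them. Tal2 was not analysed here.

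Nkx6-1, a ventral neural tube factor, was at 6.05 in A1 and 6.25 in A2 against 2.87 to 3.13 elsewhere, a difference of 3.25 ± 0.21 from EF (SE, limma adjusted p = 0.0108). Irx3, a neural tube patterning factor, was at 9.16 and 9.18 against 6.01 to 6.69, a difference of 2.87 ± 0.33 (adjusted p = 0.0327). Lhx1 and Lhx5, LIM homeodomain factors of inhibitory interneurons, were higher than in EF by 2.14 ± 0.22 (adjusted p = 0.0268) and 2.08 ± 0.24 (adjusted p = 0.0334); without DAC2 replicate 2 Lhx5 was not called (2.08, adjusted p = 0.0516). En2, a midbrain and hindbrain factor, was at 10.92 in A1 and 10.81 in A2 against 3.67 to 6.39; it was called against each of the 4 lines but not against EF (5.79 ± 1.03, adjusted p = 0.0901).

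Genes that handle GABA once it is made were represented by 6 measured genes, 4 of them tested, and 1 rose against EF and ES. That gene was Slc32a1, the vesicular GABA transporter, at 6.58 in A1 and 6.22 in A2 against 2.43 to 2.67, which differed by 3.85 ± 0.25 from EF (SE, limma adjusted p = 0.0107) and by 3.85 ± 0.25 from ES (adjusted p = 0.0104). Like Lmo3, it passed the filter only through the iPS lines, so 1 of 4 is no measure of the list. Over all genes, 2.02% were called higher against EF and 1.83% against ES. The Slc32a1 calls were lost when a line of either label compared was left out. They stayed when the line left out was of the third label. Abat, which breaks GABA down, was at 6.50 in A1 and 6.23 in A2, beside 6.49 in REF2 and 5.72 in DAC2, against 3.99 in DAC8 and 4.35 in REF1.

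Other lists of inhibitory neurons held few tested genes, so little can be read from their counts. Over all genes, 2.02% were called higher against EF and 1.83% against ES. Of 8 subtype markers, 5 were tested and 1 rose against both labels, Sst (somatostatin), at 5.03 in A1 and 5.15 in A2 against 2.61 to 3.13 (against EF 2.18 ± 0.26, limma adjusted p = 0.0359; 0.0914 without A1 replicate 2). The Sst call was lost with the line as a random block (adjusted p = 0.485 against EF and 0.458 against ES), and Sst and Gabra2 passed the filter only through the iPS lines. Of 13 GABA receptor genes measured, 4 were tested and 1 was called, Gabra2, against ES only (3.02 ± 0.39, adjusted p = 0.047); this call was lost without A1 replicate 2 (2.88), A2 replicate 1 (2.94), DAC8 replicate 1 (2.98), REF1 replicate 1 (3.02) or REF2 replicate 2 (3.02), at adjusted p = 0.0508 to 0.0652. Of 5 forebrain factors measured, 1 was tested and 0 were called by limma (0 at an unadjusted p under 0.05): Dlx1, at 5.31 in A1 and 5.76 in A2 against 3.68 to 4.77. Dlx1, too, passed the filter only through the iPS lines. Dlx2 was not analysed here.

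**Figure D3:**
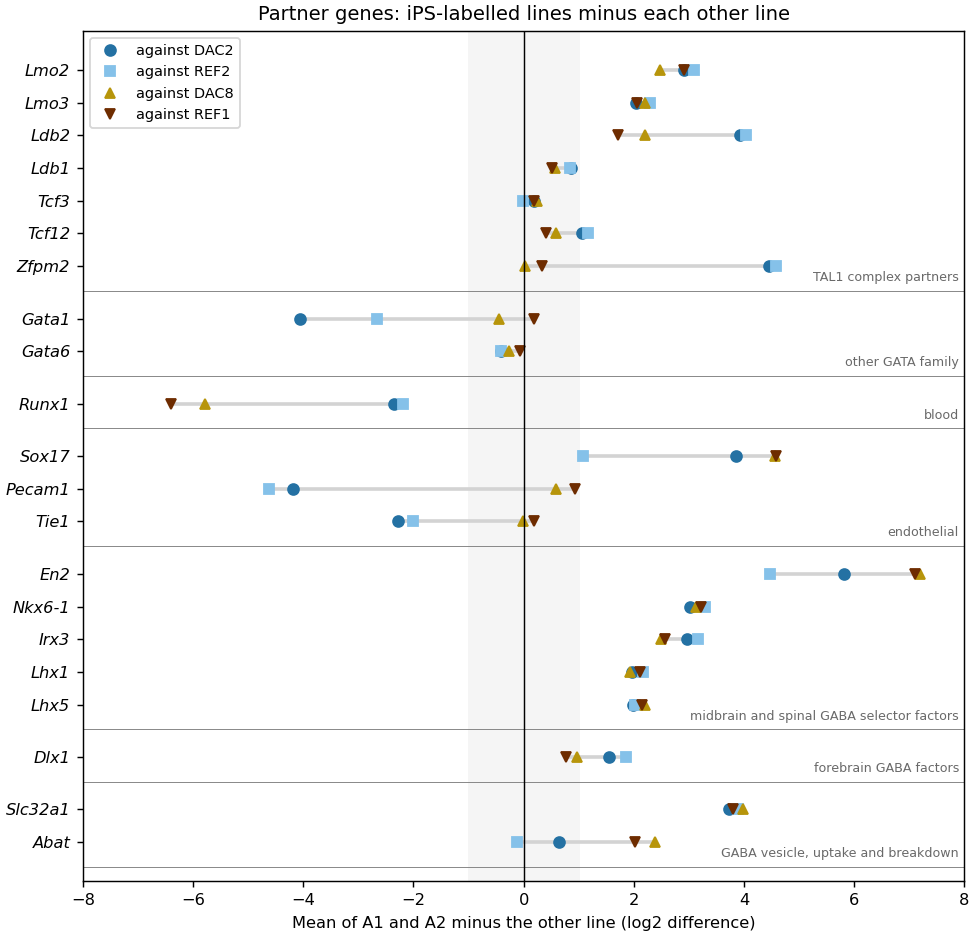
Mean of A1 and A2 minus each of the other 4 lines (x axis, log2 difference) for named partner genes (y axis), grouped by list; grey bars span the 4 differences and the shaded band is under 2-fold. Lmo2, Nkx6-1, Irx3, Lhx1, Lhx5, En2 and Slc32a1 lie on the same side of 0 against all 4 lines, as does Runx1 on the other side.

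Markers of other neurons moved as well. Of 12 genes of glutamate neurons, 4 were tested and 2 rose: Neurog1, a proneural factor, by 5.50 ± 0.29 against EF (SE, limma adjusted p = 0.00817), and Neurod1 by 4.44 ± 0.21 (adjusted p = 0.00678). Both passed the filter only through the iPS lines, so their share is no measure of the list. Without A1, A2, REF1 or REF2, which leaves 1 line in a label compared, neither gene was called against EF. The differences were then 5.33 to 5.67 for Neurog1 and 4.34 to 4.54 for Neurod1. Slc17a6, the vesicular glutamate transporter of the midbrain and hindbrain, was under 5 in every line. Of 9 genes listed for serotonin and noradrenaline neurons, 6 were tested and 0 were called by limma against EF or ES (2 and 1 at an unadjusted p under 0.05). Against each of the 4 lines 2 were called higher, Ddc and Mapt, beside 5.41% of all genes. Mapt marks neurons in general and was also at 7.84 in DAC2 and 7.80 in REF2. A level of 5 was reached by 2 of the 9 genes in A1 and in A2, and by 2 to 4 in the other lines. With the line as a random block Ddc was also called higher against EF (adjusted p = 0.00446) and ES (adjusted p = 0.0147). Of 10 pan-neuronal genes, 8 were tested. Of these, 5 rose against EF, 4 against ES and all 8 against each of the 4 lines. The shares called higher over all genes were 2.02%, 1.83% and 5.41%. Elavl4 and Snap25 passed the filter only through the iPS lines, so the counts are no measure of the list. The summed log2 level of these 10 genes was 91.7 in A1 and 91.8 in A2 against 50.5 to 59.8 elsewhere, and its part in the levels of Tal1, Gata2, Gad1 and the inhibitory lists was not tested. Trophoblast genes, another setting of Gata2 and Gata3, gave 0 calls against EF or ES (8 of 10 tested, limma, 1 at an unadjusted p under 0.05 in each). Among them 1 fell against each of the 4 lines, Tfap2a, beside 3.35% of all genes.

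The calls against EF and ES rest on 2 lines a label. Leaving out any single line left 0 calls in the TAL1 complex list and 0 or 1 among the midbrain and spinal factors, and without A1 or A2 no gene was called at all (against EF, 618 and 598 genes had a limma unadjusted p under 0.05; Lmo2 against EF: 2.90, limma adjusted p = 0.376 without A1, and 3.09, adjusted p = 0.375 without A2). Without both DAC8 and REF2, a fit of the 2 iPS lines against 1 ES and 1 EF line, most genes were called: of 10867, 42.4% higher and 31.0% lower against EF, and 33.8% and 37.1% against ES. In that fit 13 of 20 TAL1 complex genes were called higher and 3 lower against EF, and 14 and 4 against ES. Of 11 blood genes, 4 were called higher and 3 lower against EF, and 2 and 7 against ES. Of 14 endothelial genes, 4 were called higher and 4 lower against EF, and 2 and 8 against ES. Of 6 midbrain and spinal factors, 5 were called higher against each. Nothing is read from these counts.

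With the line as a random block over the 12 arrays, 3.08% of all genes were called higher against EF and 2.98% against ES. Lmo2, Nkx6-1, Irx3 and Slc32a1 were still called against both. Lhx1 (adjusted p = 0.0608 against EF and 0.0947 against ES) and Lhx5 (0.305 and 0.321) were not, nor was Gabra2 against ES (adjusted p = 0.103). En2 (adjusted p = 0.00418 and 0.00228) and Calb2, an interneuron marker of the subtype list (0.0179 and 0.0389), which were not called on line means, were called in that fit. Irx3 was not called with the mean of its probe sets (adjusted p = 0.139).

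Likeness to Tal1 was measured as the Euclidean distance between log2 profiles centred on their mean over the 12 arrays. The 8 nearest of the tested genes were Fez1 (distance 1.33), Rtn1 (1.45), Elavl4 (1.48), Draxin (1.62), Stra6l (2.05), Mgst1 (2.28), Tagln3 (2.29) and Stmn3 (2.31). Fez1 acts in axon outgrowth, Elavl4 encodes a neuronal RNA-binding protein, Draxin an axon guidance protein and Stmn3 a neuronal stathmin, while Mgst1 encodes a glutathione transferase. Their Pearson correlations with Tal1 over the 12 arrays were 0.992 to 0.999; since 4 arrays stand apart from 8, each describes that single step. Among the members, Gad1 ranked 11 (distance 2.92), Gata2 ranked 23 (3.92), Tek ranked 30 (4.48) and Gata3 ranked 403 (9.39).

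**Figure D4:**
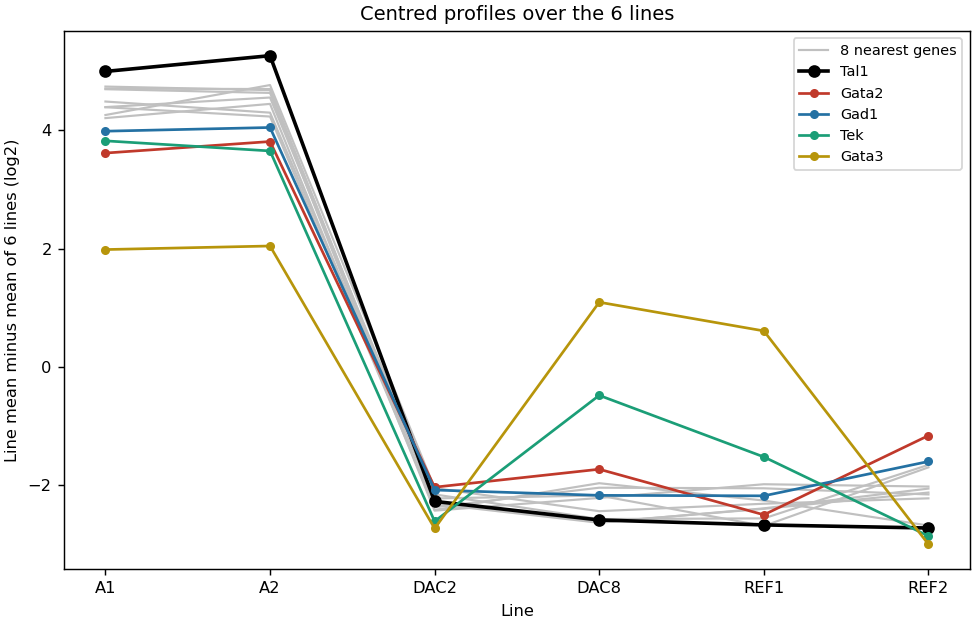
Line mean minus the mean of the 6 lines (y axis, log2) by line (x axis) for Tal1, 4 other members and the 8 genes nearest to Tal1 (grey). Gad1 and Gata2 follow the step from A1 and A2 to the other lines, the Tek levels outside A1 and A2 are all under 5, and Gata3 is above 5 in DAC8 and REF1 too, at 6.76 and 6.27.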

How the data were processed

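Gene expression was measured on 12 Affymetrix arrays, and the authors deposited log2 signals of 31099 probe sets. Per the submitters' processing notes, RMA was used with Partek 6.2. RMA subtracts background, equalises arrays and combines the probes of a set, so differences of dim genes are compressed. In the sources used here, neither joint normalization of the 12 arrays nor a genome build is stated. The platform's gene table gave 20832 probe sets 1 symbol, 436 several and left 9831 unnamed. Values were used as deposited. Genes whose highest line mean was under 5 were left out (3217 of 14218), leaving 11001.

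With limma 3.58.1 (R 4.3.3) and Benjamini-Hochberg adjustment over these genes, 2 fits were made: cell types on the 6 line means (3 residual degrees of freedom), and lines on the 12 arrays (6 residual degrees of freedom). Both were run on simulated data, with a spread between lines taken from A1 against A2 for cell types and none for lines. Lines of the labels ES and EF differed by more (40.2% and 40.3% of genes called, against 0.218% between A1 and A2). The simulation thus does not measure how the cell-type fit performs here. The members and the 14 gene lists were chosen with earlier results of these data known. Named genes were all members, up to 4 called genes per list and direction, a set of partners named whatever their values, and the 8 genes nearest Tal1. Alternatives were other filters, scalings, probe-set rules, an intensity trend, line or replicate blocks, and arrays or lines left out. Promoters are from RefSeq (GRCr8), and plots were drawn with matplotlib 3.10.9 in Python 3.11.15. The number of arrays limits the precision.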

Additional observations from a re-analysis of the deposited data

Results flagged for a closer look

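On the weaker Tal1 probe set, 1394720_at, A1 replicate 2 measured 5.25, below the other 3 iPS-labelled arrays, which lay between 5.38 and 5.40. It stood apart from the other arrays of its label by most of the group's range. Of 30 groups of 4 arrays examined, this was the only array to stand apart. Chance gives about 1 in 20 of such groups, so 1 among 30 is no excess. The value is 0.02 above the highest array of the other lines, and the main Tal1 probe set showed no such array.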

How the results depend on the processing

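The counts of genes called between cell types (278 against EF, 249 against ES) depended most on how lines were treated. With the line as a random block, 557 and 512 genes were called; with 12 arrays taken as independent, 3164 and 3006; and without DAC8 and REF2, which leaves 1 line for each of those labels so that they are assumed to vary like the iPS lines, 7977 and 7705. With limma, leaving out A1 gave 0 and 0 calls (618 and 597 at an unadjusted p under 0.05) and leaving out A2 gave 0 and 0 (598 and 578). Against EF, 92 genes were called without DAC8, 91 without DAC2, 0 without REF1 (1574 unadjusted) and 0 without REF2 (1457 unadjusted). Against ES, 101 were called without REF1, 101 without REF2, 0 without DAC8 (1478 unadjusted) and 0 without DAC2 (1480 unadjusted). Fewer lines enter these fits. Leaving out single arrays gave 265 to 280 calls against EF and 236 to 252 against ES, and all 6 counts of called genes kept within 1.5 times under the filters, scalings, probe-set mean and intensity trend. With the trend, Lmo3, Lhx1, Lhx5, Sst and Gabra2 were not called against ES (adjusted p = 0.0511 to 0.0597), nor Lhx5 (0.0501) and Sst (0.0599) against EF.

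Among the members between lines, 11 of the alternative values changed sign, none of them called and all but 1 with both lines under 5 in the main setting. In DAC8 against REF1, Gad1 gave -0.092 with the mean of probe sets, -0.076 to 0.092 as single arrays were left out (-0.024 without REF1 replicate 1) and -0.19 on its other probe set, and Tal1 gave -0.10 with the mean and -0.29 on its other probe set. Gata2 on its other probe set gave -0.41 there and 0.26 in DAC2 against REF2. In DAC2 against REF2 the other probe sets gave -0.028 for Gata3 and 0.15 for Gad1, and in A1 against A2 0.0072 for Gad1. The causes were not tested.

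Replicate numbers did not pair arrays across lines (correlation of deviations -0.08 to 0.24 over 15 line pairs). The replicate block left the counts between lines at 24, 440, 168 and 963.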
